A study of Rattus norvegicus with 6 samples.

Results

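The insulin signalling route from the receptor to its transcription factor was followed in rat liver through 10 genes, Insr, Irs1, Irs2, Pik3ca, Pik3r1, Pdpk1, Akt1, Akt2, Gsk3b and Foxo1. They were chosen by name for their place in the route. All 10 were found once each among the 30957 genes of the deposited table, and all 10 passed the filter on low counts that left 12210 genes to test. The RNA came from female Sprague Dawley rats, an outbred stock, bought at 3 weeks of age and given 3 courses of antibiotics of 7 days each to reduce their own gut bacteria. They were then gavaged daily for 14 days with faecal microbiota from donors injected with PBS (t-PBS recipients, the controls) or with dehydroepiandrosterone, an androgen precursor, at 6 mg per 100 g body weight a day (t-DHEA recipients). The recipients themselves were not injected with DHEA. Of 6 rats in each group, 3 livers were sequenced, and the faecal pellets of donors were pooled before gavage, so that the recipients of a group shared donor material. The comparison asks whether the DHEA-shaped microbiota altered expression along this route in recipients that the study examined for glucose tolerance.

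Insulin binds its receptor on the hepatocyte, which phosphorylates the docking proteins IRS1 and IRS2. These recruit PI3K, whose lipid product brings AKT to the membrane, where PDPK1 phosphorylates it. AKT then inhibits GSK3B, which releases glycogen synthesis, and excludes FOXO1 from the nucleus, which lowers the transcription of gluconeogenic genes. Most of this control acts on proteins, through phosphorylation, and the RNA levels measured here do not show it. Transcription of Irs2 and of Foxo1 targets such as Pck1 and G6pc is known to follow fasting and feeding in liver.

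The sequence upstream of the start site is shown for Irs1 and Pik3r1, the genes of the route that met the criteria given below, for Insr, a known Foxo1 target, and for Igfbp1, a classical Foxo1 target that is not in the route. Each run is the 250 bases before the gene's start in RefSeq on GRCr8, a later build than the Rnor_6.0 of the count table, written from 5′ to 3′ on the strand of the gene. Of the 10 genes, 9 matched an entry, Irs2 being the exception. Capitals mark any match to GTAAACA (a forkhead motif), CAAAACA (the core of insulin response sequences), CACGTG (the E-box) or TTATGNAA (the D-box), searched on both strands.
Irs1, chr9:91053960-91054209, minus strand: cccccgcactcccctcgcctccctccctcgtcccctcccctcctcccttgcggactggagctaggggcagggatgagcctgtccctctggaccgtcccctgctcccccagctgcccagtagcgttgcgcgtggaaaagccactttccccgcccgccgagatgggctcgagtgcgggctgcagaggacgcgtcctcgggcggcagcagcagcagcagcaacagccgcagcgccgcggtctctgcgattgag
Pik3r1, chr2:34697661-34697910, minus strand: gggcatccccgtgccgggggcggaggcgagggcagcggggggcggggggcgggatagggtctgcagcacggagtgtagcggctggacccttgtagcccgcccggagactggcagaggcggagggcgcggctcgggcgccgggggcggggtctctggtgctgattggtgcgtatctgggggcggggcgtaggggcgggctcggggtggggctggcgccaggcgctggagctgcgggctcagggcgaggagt
Insr, chr12:6128804-6129053, minus strand: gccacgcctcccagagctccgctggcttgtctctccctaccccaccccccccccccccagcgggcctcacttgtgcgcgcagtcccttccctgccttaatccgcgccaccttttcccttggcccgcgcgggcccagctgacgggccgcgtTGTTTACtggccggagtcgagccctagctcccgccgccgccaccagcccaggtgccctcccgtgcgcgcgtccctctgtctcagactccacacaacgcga
Igfbp1, chr14:86261027-86261276, plus strand: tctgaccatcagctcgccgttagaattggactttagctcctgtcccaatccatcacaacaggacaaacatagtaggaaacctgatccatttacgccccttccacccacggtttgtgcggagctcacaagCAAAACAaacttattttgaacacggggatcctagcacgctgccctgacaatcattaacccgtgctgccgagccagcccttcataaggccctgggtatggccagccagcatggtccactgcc
None of these 4 motifs was found in the windows of Irs1 and Pik3r1. The Insr window held the forkhead motif on its other strand, starting 100 bases before the start site, and that of Igfbp1 held CAAAACA, starting 121 bases before it. Among the other genes of the route, Pik3ca held the forkhead motif and Gsk3b the E-box, starting 157 and 195 bases upstream. Other Foxo1 targets searched differed. The windows of Pck1 and Tat held none of the 4 motifs, that of G6pc (G6pc1 in RefSeq) held CAAAACA and that of Klf15 the E-box. Among all 33469 upstream windows of this length, 3.21% held the forkhead motif, 5.46% CAAAACA, 5.59% the E-box and 3.28% the D-box. A match of letters is a description and shows no binding. Sequence farther upstream was not searched, so a missing match speaks for these windows only.

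The total count per liver ran from 12348511 to 14316886 and overlapped between the groups. Hepatocyte markers, among them Alb, Ttr and Hnf4a, summed to between 171357 and 200399 CPM (the count of a gene relative to the total of its library after TMM scaling) in each liver, and none of these 10 markers met the criteria below. Markers of other cells differed between the groups. Over all 12210 genes tested, 2.98% met the criteria as lower and 1.97% as higher in t-DHEA livers. Every t-DHEA liver was below every t-PBS liver for 5.42% of genes and above for 4.66%. All 5 mesothelial markers tested were lower in every t-DHEA than in every t-PBS liver and 4 met the criteria, with sums of 27.4 to 34.1 CPM in t-PBS and 2.99 to 14.3 CPM in t-DHEA livers over 6 markers, Wt1 being below the filter. Bile duct markers, where Krt7 and the shared Krt19 met the criteria, summed to 18.9 to 23.3 against 9.13 to 17.1 CPM over 6 markers. Among the 5 bile duct markers tested, 1 was higher in t-DHEA livers. The 7 stellate cell and fibroblast markers, 2 of them called as lower and 1 higher without a call, summed to 560.5 to 727.4 against 461.0 to 542.7 CPM. The 5 red blood cell markers, all higher and 4 of them called, summed to 240.9 to 384.7 against 408.8 to 818.8 CPM. The summed levels of 6 endothelial and 6 Kupffer cell markers overlapped between the groups, although the endothelial receptor gene Kdr met the criteria as higher without overlap. Of 8 adipose and pancreas markers, 6 (Adipoq, Plin1, Lep, Ins1, Ins2 and Prss1) were listed at 0 in all 6 livers. Pnpla2, from the list of Foxo1 targets of liver, was also listed at 0 in all 6, so a 0 alone does not show absence. The 8 markers summed to 23.7 to 40.2 CPM in t-PBS and 21.1 to 71.6 CPM in t-DHEA livers, with t-DHEA rat 1 the highest. The part of these cells in the results below was not tested, and in whole liver fewer cells of a type and less RNA per cell cannot be told apart.

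Of the 10 genes, Irs1 was lower and Pik3r1 was higher in t-DHEA livers by the criteria that the study used, which asked for a fold-change above 1.2 together with p below 0.05 before adjustment. The other 8 genes did not meet them. The study applied these thresholds with edgeR to FPKM values, whereas the test here was run on counts, so these are not the study's own calls. Over all 12210 genes tested, 4.95% met the same criteria, 1.97% as higher and 2.98% as lower in t-DHEA livers. After Benjamini-Hochberg adjustment over all genes in edgeR's quasi-likelihood test, the lowest adjusted p among the 10 genes was 0.957. No gene of the table had an adjusted p below 0.05 in that test, 634 genes or 5.19% had a p below 0.05 before adjustment, and DESeq2 and edgeR's likelihood-ratio test gave 24 and 28 genes with an adjusted p below 0.05, none of them among the 10. The median log2 fold change of the 10 genes was -0.037 against 0.0013 over all genes tested, and 3 of the 10 were higher in t-DHEA livers.

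**Figure D1:**
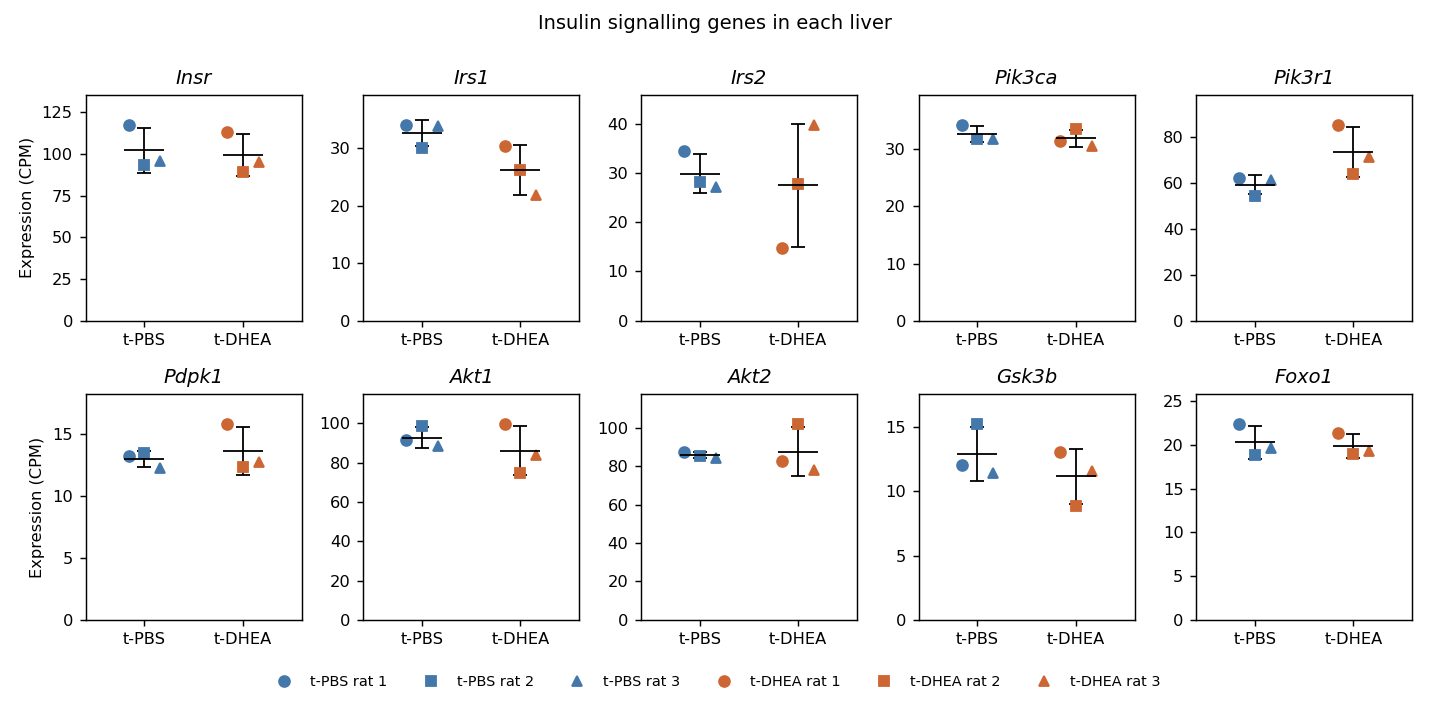
Expression in CPM (vertical axis, from 0) of the 10 genes in each of the 6 livers, 1 panel per gene, with t-PBS in blue and t-DHEA in orange and a marker shape for each rat. Bars give the mean ± SD of 3 livers. Pik3r1 is the gene with no overlap between groups, and Irs2 runs from 14.9 to 39.9 CPM within t-DHEA livers.

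Insr encodes the insulin receptor, on chromosome 12 of Rnor_6.0 from 1680957 to 1816414. Here and in what follows, values of 3 livers are given in the order of rats 1, 2 and 3 of each group. Insr was measured at 117.6, 93.1 and 95.6 CPM in t-PBS livers and at 113.3, 89.4 and 95.3 CPM in t-DHEA livers. Rat 1 was the highest of each group and the groups overlapped almost fully. The log2 fold change of -0.04 (SE 0.13) had a 95% interval from -0.33 to 0.25, which is a fold of 0.795 to 1.19. The genes whose levels followed Insr most closely over the 6 livers, among 7150 genes with a mean of at least 10 CPM, were Baz2a and Daxx. Their log2 CPM, after the mean of each gene was taken off, lay on average 0.034 and 0.039 from that of Insr. Such a distance is also small between genes that both vary little, so it does not measure shared variation alone.

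Irs1 encodes a docking protein that passes the signal of the receptor to PI3K, and lies on chromosome 9 from 88033668 to 88086488. Its counts were 487, 408 and 448 in t-PBS livers and 369, 351 and 283 in t-DHEA livers. In CPM these were 34.1, 30.1 and 33.8 in t-PBS livers, and 30.5, 26.3 and 21.9 in t-DHEA livers. All but 1 of the t-DHEA livers lay below every t-PBS liver, since t-DHEA rat 1 was just above t-PBS rat 2. The FPKM values, which are scaled by gene length and library total without TMM factors, did not overlap, with 5.85 as the lowest t-PBS and 5.58 as the highest t-DHEA value. Mean expression was 32.7 ± 2.25 CPM (SD, n = 3) in t-PBS and 26.2 ± 4.30 CPM (SD, n = 3) in t-DHEA livers. In edgeR's quasi-likelihood test the log2 fold change was -0.32 (SE 0.14), a fold of 0.801 with a 95% interval from 0.648 to 0.991, with an adjusted p of 0.957 and 0.0428 before adjustment. When single livers were left out, Irs1 no longer met the criteria without t-PBS rat 1, t-PBS rat 3, t-DHEA rat 2 or t-DHEA rat 3, and its log2 fold change reached -0.20 without the last of these. It also missed them with DESeq2 and with the likelihood-ratio test, with unadjusted p-values of 0.0556 and 0.0510. Mllt6 and Ctdsp2 varied most like Irs1 over the livers, at mean distances of 0.046 and 0.046 on the log2 scale.

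Irs2, the other docking protein of liver, is on chromosome 16 from 83824430 to 83848684. Its 3 t-PBS values were close, at 34.4, 28.1 and 27.2 CPM in rats 1, 2 and 3. The t-DHEA values were 14.9, 27.7 and 39.9 CPM in rats 1, 2 and 3, from 180, 370 and 516 counts. The lowest and the highest of the 6 livers were thus both t-DHEA livers, with rat 2 among the t-PBS values. The highest t-DHEA value was 2.68 times the lowest, against 1.27 times in t-PBS livers. The coefficient of variation was 45.5% in t-DHEA and 13.2% in t-PBS livers, where counting error alone would give 5.68% and 4.97%. Of the 7150 genes with a mean of at least 10 CPM, 96 had a larger coefficient of variation in t-DHEA livers. The log2 fold change of -0.12 (SE 0.29, the largest SE of the 10 genes) had a 95% interval from -0.78 to 0.54. Leaving out t-DHEA rat 1, the lowest liver, gave 0.17, and leaving out t-DHEA rat 3, the highest, gave -0.48.

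The genes closest to Irs2 over the 6 livers were Mfsd2a, which encodes a lipid transporter, and Sesn2, a stress-induced regulator of mTORC1, at mean distances of 0.11 and 0.14 on the log2 scale. Mfsd2a was at 77.4, 68.9 and 63.7 CPM in t-PBS livers and at 42.8, 55.6 and 92.9 CPM in t-DHEA livers. Sesn2 was at 24.5, 24.4 and 20.7 CPM in the t-PBS and 14.4, 20.3 and 30.3 CPM in the t-DHEA livers, in the same order of rats. Both genes were lowest in t-DHEA rat 1 and highest in t-DHEA rat 3, as Irs2 was. This follows largely from their choice as the genes closest to Irs2 over these same livers. The gluconeogenic genes Pck1 and G6pc, named here after their values were seen, had the same order within t-DHEA livers. Pck1, which encodes the cytosolic phosphoenolpyruvate carboxykinase, was at 671.9, 1444 and 2334 CPM in t-DHEA livers, against 1089, 1119 and 1471 CPM in the t-PBS rats. G6pc, which encodes the glucose-6-phosphatase of glucose release, was at 260.6, 364.0 and 946.2 CPM in the t-DHEA and 342.9, 808.6 and 428.5 CPM in the t-PBS rats. Within the t-PBS livers neither gene followed the order of Irs2. No other Foxo1 target tested had the order of Irs2 within t-DHEA livers. Igfbp1, for example, was at 51.9, 249.7 and 130.5 CPM there, and Pdk4 at 109.6, 157.3 and 83.2 CPM. Srebf1, which encodes a transcription factor of lipid synthesis, was highest in t-DHEA rat 1, at 490.6 CPM, against 272.1 and 362.2 CPM in t-DHEA rats 2 and 3. With 3 livers in a group, a shared order of this kind is a description and was not tested.

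**Figure D2:**
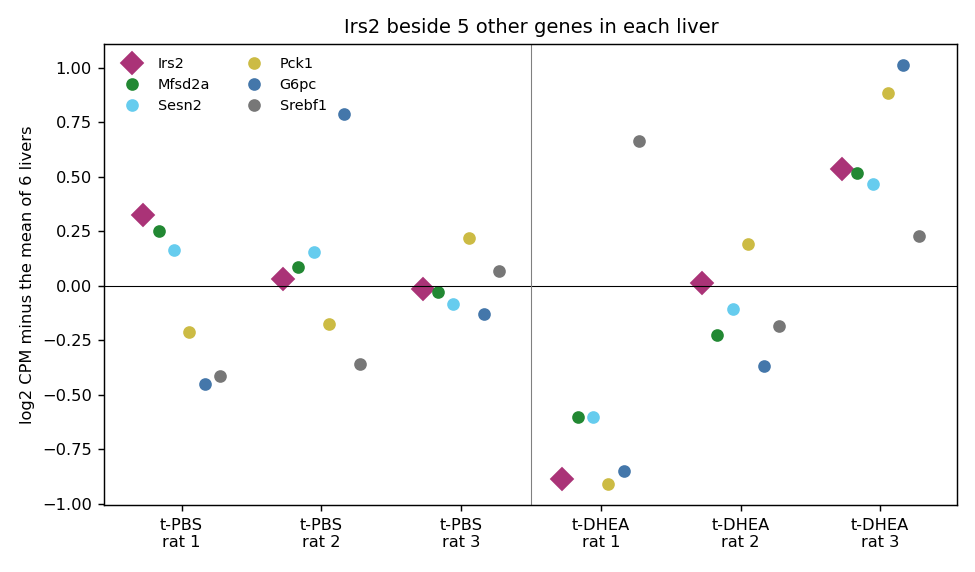
The log2 CPM of Irs2 (diamonds), Mfsd2a, Sesn2, Pck1, G6pc and Srebf1 (circles) in each liver, on the vertical axis, after subtraction of each gene's mean over the 6 livers. In t-DHEA rat 1 all but Srebf1 lie below 0, and in t-DHEA rat 3 all 6 lie above it. Mfsd2a and Sesn2 were chosen for their closeness to Irs2 in these livers.

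PI3K is built from a catalytic subunit, p110 alpha from Pik3ca, and a regulatory subunit, p85 alpha from Pik3r1, which holds the catalytic subunit inactive until it docks on an IRS protein. Pik3r1, on chromosome 2 from 31745088 to 31826867, was at 62.1, 54.5 and 61.2 CPM in t-PBS livers. It was at 85.6, 64.2 and 71.4 CPM in t-DHEA livers, from 1037, 858 and 924 counts. Every t-DHEA liver was above every t-PBS liver, which among the 10 genes held for Pik3r1 alone. Over all genes tested, the groups were apart in 10.1%, with t-DHEA above in 4.66% and below in 5.42%. Mean expression was 59.3 ± 4.16 CPM (SD, n = 3) in t-PBS and 73.7 ± 10.9 CPM (SD, n = 3) in t-DHEA livers. In edgeR's quasi-likelihood test the log2 fold change was 0.31 (SE 0.12), a fold of 1.24 with a 95% interval from 1.03 to 1.51, with an adjusted p of 0.957 and 0.0301 before adjustment. It was 0.19 without t-DHEA rat 1, the highest liver, where edgeR gave an unadjusted p of 0.117, and Pik3r1 also missed the criteria without t-PBS rat 2 and with limma on FPKM.

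Pik3ca, on chromosome 2 from 118831350 to 118861454, was at 34.3, 31.8 and 31.9 CPM in t-PBS livers and at 31.5, 33.6 and 30.6 CPM in t-DHEA livers. It was the steadiest gene of the route, with a coefficient of variation of 4.65% over the 6 livers in FPKM. Its log2 fold change was -0.03 with a 95% interval from -0.25 to 0.19. The ratio of Pik3r1 to Pik3ca in FPKM, which is scaled by gene length, was 2.66, 2.52 and 2.83 for t-PBS livers, against 3.99, 2.81 and 3.43 for t-DHEA livers. The t-DHEA rat 2 fell within the t-PBS range and the other t-DHEA rats lay above it. The log2 ratio was higher by 0.34 in t-DHEA livers (exact permutation test, two-sided, p = 0.2, adjusted p = 0.6 over 3 ratios), where 0.1 is the smallest p that 3 livers against 3 allow. Mtif2 and RGD1565641 varied most like Pik3r1, at mean distances of 0.041 and 0.053 on the log2 scale. Cdk2 and Tdp2 lay closest to Pik3ca, at 0.017 and 0.019. The spread of Pik3ca was near counting error in both groups, so this closeness need not be shared variation.

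Pdpk1 encodes the kinase that phosphorylates AKT in its activation loop, and lies on chromosome 10 from 13451624 to 13515448. It was at 13.2, 13.5 and 12.2 CPM in t-PBS livers and at 15.9, 12.3 and 12.7 CPM in t-DHEA livers. Only t-DHEA rat 1 stood outside the t-PBS range, and the log2 fold change of 0.07 became -0.05 without it. Akt1, on chromosome 6 from 137218376 to 137236258, and Akt2, the AKT isoform most tied to insulin action in liver, on chromosome 1 from 84411726 to 84450162, did not vary together within t-DHEA livers. Akt1 was at 99.8, 74.9 and 83.7 CPM in t-DHEA livers, around the 91.4, 98.4 and 88.2 CPM of the t-PBS rats. Akt2 was at 82.8, 102.3 and 78.0 CPM in t-DHEA livers, against 87.7, 85.5 and 84.5 CPM in the t-PBS rats, where the highest value was 1.04 times the lowest, the smallest such ratio among the 10 genes in either group. The t-DHEA rat 2 had the lowest Akt1 and the highest Akt2 of the 6 livers. The log2 fold changes were -0.11 (SE 0.12) for Akt1 and 0.03 (SE 0.11) for Akt2, with 95% intervals from -0.37 to 0.16 and from -0.23 to 0.29. Rbm27 and Mgll varied most like Pdpk1, Dock5 and Gnl2 most like Akt1, and Ppp6r2 and Fbxw5 most like Akt2. The ratio of Akt2 to Akt1 in FPKM was 1.17, 1.06 and 1.17 for t-PBS livers, against 1.01, 1.66 and 1.14 for t-DHEA livers. That of Irs2 to Irs1 was 0.830, 0.769 and 0.662 in the t-PBS rats and 0.402, 0.868 and 1.5 in the t-DHEA rats. Both ratios overlapped between the groups. The log2 ratios were higher by 0.14 and 0.10 in t-DHEA livers, with adjusted p-values of 0.9 and 0.9 in the exact permutation test.

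Gsk3b encodes the kinase that holds glycogen synthase inactive until AKT inhibits it, and lies on chromosome 11 from 65066235 to 65209268. It was at 12.1, 15.3 and 11.4 CPM in t-PBS livers and at 13.0, 8.83 and 11.6 CPM in t-DHEA livers. The log2 fold change of -0.21 (SE 0.18) became -0.07 without t-DHEA rat 2, the lowest liver, or without t-PBS rat 2, the highest. Papd5 and Lamc1 were closest to Gsk3b over the livers. Foxo1, the transcription factor at the end of the route, on chromosome 2 from 141451234 to 141527016, was at 22.4, 18.8 and 19.7 CPM in t-PBS livers and at 21.4, 18.9 and 19.3 CPM in t-DHEA livers. The groups covered nearly the same range, and the 95% interval of the log2 fold change, -0.03, ran from -0.28 to 0.22. Sin3a and Rab9a, at mean distances of 0.015 and 0.016, were the genes closest to it. Of all pairs among the 10 genes, Insr and Foxo1 lay closest over the livers, at a mean distance of 0.051 on the log2 scale. Both were highest in t-PBS rat 1 and next in t-DHEA rat 1. Irs2 and Gsk3b lay farthest apart, at 0.45, where the distance also reflects the wide spread of Irs2.

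**Figure D3:**
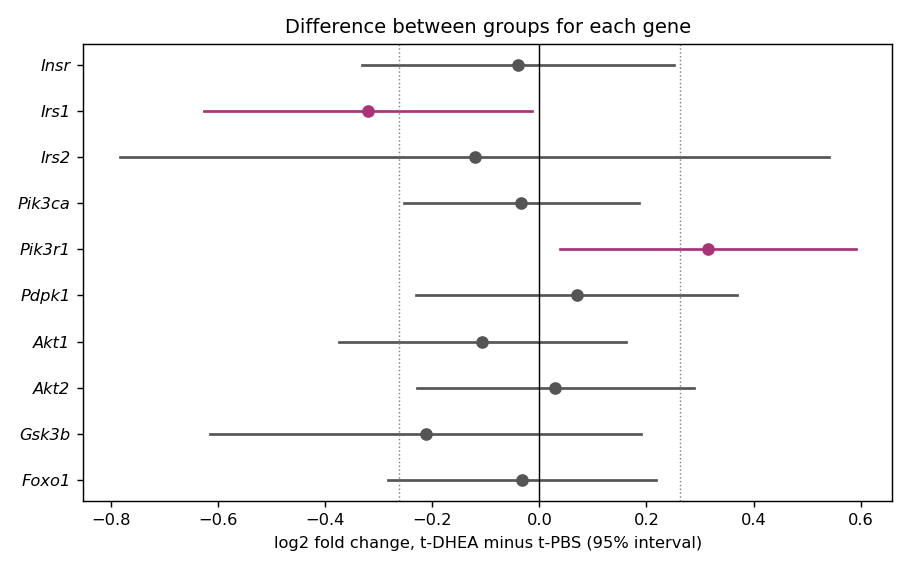
Log2 fold change of t-DHEA against t-PBS livers (horizontal axis) for each of the 10 genes, with 95% intervals from edgeR's quasi-likelihood test. Purple marks Irs1 and Pik3r1, which met the criteria, the dotted lines mark a fold-change of 1.2, and the interval of Irs2 is the widest.

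Per gene length, in FPKM, the kinase Akt2 was the most abundant RNA of the route, at 43.7 ± 4.13 FPKM (SD, n = 6 livers), and Akt1 was next at 37.0 ± 4.25 FPKM (SD, n = 6 livers). Their ranges overlapped, although Akt2 was above Akt1 in 6 of 6 livers. Pik3r1 at 15.3 and Insr at 11.6 FPKM followed, again with overlapping ranges and in the same order in 6 of 6 livers. Foxo1 at 7.84 and Pdpk1 at 7.08 FPKM were neighbours with overlapping ranges, and Foxo1 was higher in 5 of 6 livers. Irs1, Gsk3b, Pik3ca and Irs2 formed the lowest group, at 5.50, 5.32, 5.05 and 4.41 FPKM, and each overlapped the next. The steps from Akt1 to Pik3r1, from Insr to Foxo1 and from Pdpk1 to Irs1 were the only neighbouring steps without overlap. Of all genes tested, 89.8% had a lower mean FPKM than Akt2 and 44.0% a lower one than Irs2. The locus of Irs1 overlapped 1 other gene of the table and that of Gsk3b 2 small RNA genes, all without a count, and those of the other 8 genes overlapped none.

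**Figure D4:**
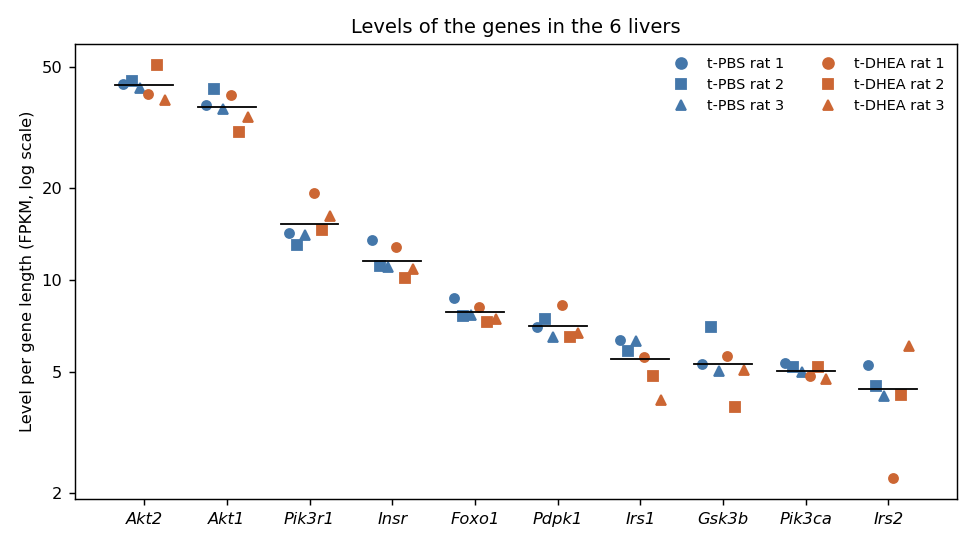
Level per gene length (FPKM, logarithmic vertical axis) of the 10 genes in each liver, ordered by the mean of the 6 livers (bars), with t-PBS in blue and t-DHEA in orange. Akt2 and Akt1 lie above all the other genes, and 1 t-DHEA liver has Irs2 at 2.24 FPKM.

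The coefficient of variation was larger in t-DHEA than in t-PBS livers for 8 of the 10 genes, all but Insr and Foxo1. For Pik3ca it was 4.80% against 4.47%, where counting error alone would give 4.95% and 4.73%. In t-PBS livers it was 5.17% for Pdpk1 and 1.91% for Akt2, below their counting error of 7.51% and 2.92%. The contrast for these genes thus rests partly on values at the level of counting error. Over the 7150 genes with a mean of at least 10 CPM, it was larger in t-DHEA livers for 54.5%. The median coefficient of variation of the 10 genes was 6.95% in t-PBS and 14.7% in t-DHEA livers, against 8.78% and 9.52% over those 7150 genes. This contrast between the groups in spread was not tested.

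Of 34 other genes of the pathway, from adaptors to mTOR, 31 passed the filter and 1 met the criteria, against 4.95% of all genes tested. This was Pde3b, which encodes a phosphodiesterase through which insulin lowers cAMP, and which rose by 0.30 on the log2 scale (SE 0.11), with an adjusted p of 0.920 and 0.0203 before adjustment in edgeR's test. It was at 54.4, 44.6 and 52.2 CPM in t-PBS livers and at 66.4, 60.1 and 59.6 CPM in t-DHEA livers, without overlap. It missed the criteria when either t-PBS rat 2 or t-DHEA rat 1 was left out and, by its fold or its p, with library size alone and with limma. The atypical protein kinase C gene Prkci and the GSK3 paralogue Gsk3a were next by p, with log2 fold changes of -0.18 and -0.19. The median of these 31 genes was -0.012. The summed level of the 34 genes was almost constant, from 801.2 to 817.1 CPM over the 6 livers. Irs4 had no count in any liver, and the insulin-like growth factor receptor Igf1r and Foxo6 were below the filter.

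Of 23 inhibitors of insulin signalling, among them the phosphatase gene Ptpn1, 22 were tested and none met the criteria, where 4.95% of all genes did. The lowest p-values belonged to Fetub, Trib2 and Phlpp2, with log2 fold changes of -0.27, -0.40 and 0.27 and unadjusted p-values of 0.194, 0.2 and 0.214 from edgeR. Fetub met the criteria as lower without t-PBS rat 1, where its log2 fold change was -0.44, and was at -0.04 without t-PBS rat 3. The median log2 fold change of the 22 genes was -0.019.

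Of 17 Foxo1 target genes of liver, 16 were tested, 11 were higher in t-DHEA livers, as were 50.4% of all genes tested, and 2 met the criteria, both as higher. Over all genes 1.97% met them as higher. Klf15, a transcription factor of amino acid catabolism and gluconeogenesis in fasting, rose by 0.65 on the log2 scale (SE 0.13). It was at 42.5, 41.4 and 53.6 CPM in t-PBS livers and at 74.7, 62.2 and 78.3 CPM in t-DHEA livers. Tat, the tyrosine aminotransferase, rose by 0.68 (SE 0.19), from 480.5, 561.3 and 620.8 CPM to 630.4, 1044 and 992.1 CPM. Neither gene overlapped between the groups in CPM, but in FPKM Tat did, with t-PBS rat 3 at 268.7 and t-DHEA rat 1 at 267.4 FPKM. Both kept their calls whichever liver was left out. Before adjustment p was 0.000959 for Klf15 and 0.00647 for Tat, and after it 0.796 and 0.805, in edgeR's quasi-likelihood test. Over all fits tried, the lowest adjusted p was 0.0212 for Klf15 and 0.0719 for Tat, both from DESeq2. The likelihood-ratio test gave adjusted p-values of 0.0298 and 0.206, and no other fit gave one below 0.05 for either gene. Both genes are also known as glucocorticoid targets, and Klf15 as a circadian one. Pdk4 had the next lowest p, with a log2 fold change of -0.47 and an unadjusted p of 0.106 from edgeR. It met the criteria as lower with DESeq2 and when either t-PBS rat 2 or t-DHEA rat 2 was left out. Leaving out t-DHEA rat 2 gave -0.74, and leaving out t-PBS rat 3 gave -0.21. Igfbp1, whose upstream sequence is given above, ranged from 51.9 to 291.4 CPM over the 6 livers with overlapping groups and a log2 fold change of 0.03. The median of the list was 0.023. It was between 0.028 and 0.099 when single livers were left out, the latter without t-PBS rat 1, and between -0.012 and 0.059 in the other fits. The log2 fold changes of Pck1 and G6pc were 0.27 and -0.0083, each with a change of sign when single livers were left out.

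Of 17 genes that insulin induces in liver, 16 were matched and tested, 11 were lower in t-DHEA livers and 5 higher, against 6062 lower and 6148 higher of all genes, and 2 met the criteria, both as higher, as 1.97% of all genes did. Gys2, the liver glycogen synthase, was at 49.5, 55.8 and 58.6 CPM in t-PBS livers and at 64.6, 61.6 and 70.7 CPM in t-DHEA livers. Srebf1 was at 232.2, 241.2 and 324.4 CPM in the t-PBS rats, so that its groups overlapped through t-DHEA rat 2. Their log2 fold changes were 0.26 (SE 0.10) and 0.50 (SE 0.21), with unadjusted p-values of 0.0294 and 0.0467 and adjusted ones of 0.957 and 0.957 from edgeR. Both missed the criteria without t-PBS rat 1, t-PBS rat 2, t-DHEA rat 1 or t-DHEA rat 3, and Srebf1 was at 0.25 on the log2 scale without t-DHEA rat 1. Both also missed them with library size alone and with limma on either scale, and Gys2 with the filter of at least 10 counts in every liver. The acyltransferase gene Gpam was next by p, with a log2 fold change of -0.36, and met the criteria as lower with DESeq2, with library size alone and when either t-PBS rat 1 or t-DHEA rat 1 was left out, the latter giving -0.53. The median of the list was -0.24, the farthest from 0 of these 4 lists, and leaving out t-DHEA rat 1 or t-PBS rat 2 gave its extremes of -0.48 and -0.04. The called genes and the median thus had opposite signs. The summed level ran from 8516 to 18996 CPM in t-PBS and from 6970 to 15080 CPM in t-DHEA livers.

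**Figure D5:**
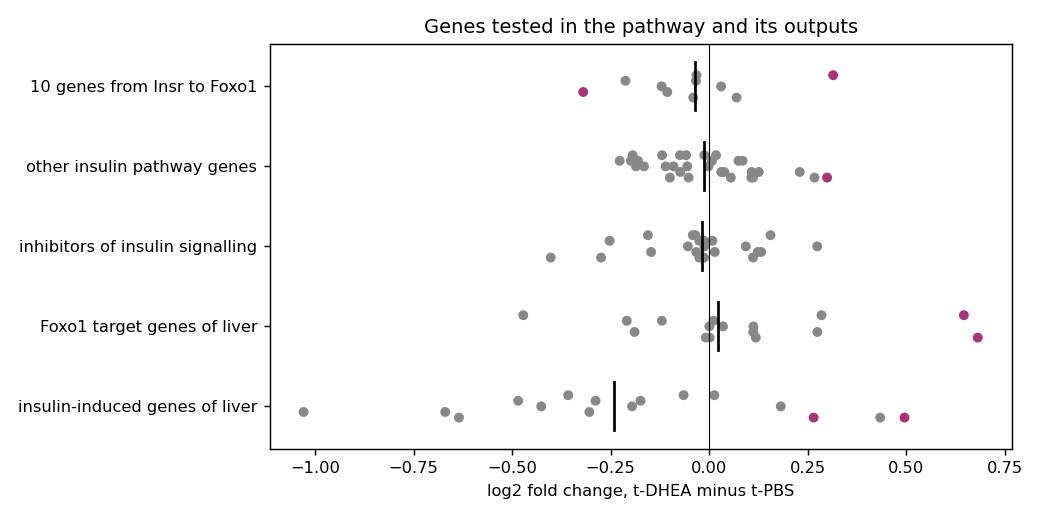
Log2 fold change of t-DHEA against t-PBS livers (horizontal axis) of each gene tested in the 10-gene route and in 4 lists of its neighbours and outputs. Each point is a gene, purple points met the criteria, and black bars are medians, of which that of the insulin-induced genes lies farthest from 0, at -0.24.

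Circadian genes are known to set part of the daily rhythm of hepatic insulin action. Of 16 tested, 5 met the criteria, where 4.95% of all genes did, and 11 did not. The 5 were Per3, Per2, Tef and Dbp as higher and Arntl as lower in t-DHEA livers, and the lowest adjusted p among them was 0.796 in edgeR's test. Their log2 fold changes were 1.09 for Per3, 0.84 for Per2, 0.67 for Tef, 1.16 for Dbp and -0.87 for Arntl. Dbp was at 32.0, 29.1 and 62.4 CPM in t-PBS livers and at 111.7, 41.7 and 123.0 CPM in t-DHEA livers. Dbp missed the criteria without t-PBS rat 1, t-PBS rat 2, t-DHEA rat 1 or t-DHEA rat 3, and the other 4 genes kept their calls whichever liver was left out. Pik3r1 shared with Dbp that t-DHEA rats 1 and 3 were the highest livers, whereas Irs2 was lowest in rat 1 and highest in rat 3 of the t-DHEA group. The groups overlapped for Dbp, and the other circadian genes were not set beside Pik3r1 in this way, so the likeness describes Dbp alone. The part of the clock in the values of Irs1, Irs2 and Pik3r1 was not tested.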

How the data were processed

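Livers of 6 recipient rats were sequenced as paired-end TruSeq libraries, 3 in each group, and groups and rat numbers were read from the sample labels. Per the labels and the study's methods, the authors filtered the reads with Seqtk, mapped them to Rnor_6.0 with HISAT2 2.0.4 and obtained a fragment count per gene with StringTie 1.3.0. The deposited counts carry no normalization, and the authors also deposited FPKM values made from them. The annotation release and strandedness are not given in the sources used here, so reads of antisense genes cannot be told apart. No value column was left unmapped (0 columns). Over the 15 pairs of libraries the lowest chi-square divided by its degrees of freedom was 15.3, so none was counted as a duplicate.

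TMM factors and the quasi-likelihood test came from edgeR 4.0.16 (R 4.3.3), run on the counts of genes passing its default filter, with no block or covariate, and CPM here is scaled by those factors. Standard errors and 95% intervals were derived from the test statistic. A count of 0 allowed up to 3 counts, or 0.210 to 0.243 CPM, which covers counting error only. P-values set the difference between groups against the spread between these rats. In the study the rats shared cages, and the recipients of a group shared pooled donor material. Neither cage nor donor pool enters these p-values or intervals as a separate source of spread. The ratios of paralogous or partner genes were tested on FPKM by an exact permutation test. Gene lists drew on general knowledge of the pathway, and counts and medians describe them without a set test. Of the list symbols, Scd and Pecam1 were not matched. Named genes were the 10 genes, those of each list that met the criteria or had the 3 lowest p-values, and the 2 genes closest to each of the 10, by the mean absolute difference of centred log2 CPM over 6 livers, among genes with a mean of at least 10 CPM. Pck1, G6pc and Igfbp1 were named after their values were seen. The genes, lists and tests were chosen with earlier results of these data known. DESeq2 1.42.0, the likelihood-ratio test, RLE factors, library size alone, other filters, limma 3.58.1 on log2(FPKM + 0.1) and log2(FPKM + 1), rat number as a block and leaving out each liver were alternatives. The fits were tested on simulated data. Other measurements of the study were not analysed here.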

Additional observations from a re-analysis of the deposited data

How the results depend on the processing

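The number of genes meeting the criteria was 604, and between 414 and 776 over the alternatives. Both Irs1 and Pik3r1 met them with RLE factors, library size alone, either other filter and the replicate block. Of the 10 genes, 1 met them with DESeq2 (Pik3r1), with the likelihood-ratio test (Pik3r1) and with limma on either scale (Irs1), and 1 in each of the 6 fits without a liver. Of the genes in the 4 lists, 5 met the criteria, against 8 with DESeq2, 3 with library size alone, 2 with limma on either scale and from 3 to 10 without single livers. Same-numbered rats did not deviate together, with correlations of deviations from -0.059 to -0.055, no rat correlated best with its own number, and the numbers were not taken as pairs. With rat number as a replicate block, 539 genes met the criteria, 2 of the 10 genes among them, and Srebf1 no longer did.

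Signs near 0 changed. The log2 fold change of Akt2 was -0.0079 with library size alone and -0.018 and -0.017 with limma on log2(FPKM + 0.1) and log2(FPKM + 1). Without single livers the ranges were -0.15 to 0.074 for Insr, -0.48 to 0.17 for Irs2, -0.070 to 0.0045 for Pik3ca, -0.051 to 0.14 for Pdpk1, -0.092 to 0.11 for Akt2, -0.088 to 0.046 for Foxo1, -0.75 to 0.44 for G6pc, -0.21 to 0.62 for Pck1 and -0.62 to 1.14 for Igfbp1. The log2 ratio of Irs2 to Irs1 ran from -0.35 to 0.61, that of Akt2 to Akt1 from -0.077 to 0.28 and that of Pik3r1 to Pik3ca from 0.22 to 0.47. The cause of these changes was not tested. The median of the 10 genes ran from -0.07 to 0.03 and those of the other pathway genes and inhibitors from -0.04 to 0.01 and from -0.03 to 0.04 without single livers. Without factors the log2 fold changes of all genes shifted by a median of -0.04. With 3 livers per group, the 95% intervals of the 10 genes include changes of 1.2-fold in at least 1 direction for all but Pik3ca.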
